A study of Mus musculus with 10 samples.

Results

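Glycolysis turns glucose into pyruvate and lactate in the cytosol, and many genes of this route are switched on when cells lack oxygen. The transcripts described here are those of 31 mouse genes of glycolysis and of the response to low oxygen, chosen by name and not by their values. A gene was read from a probe set annotated to its symbol alone, and from the brightest such probe set over all arrays where there were several. Of the 31 genes, 28 had such a probe set and all 28 passed the filter on dim genes, out of 19937 genes on the array and 16339 that passed. Eno1, Gapdh and Gpi1 had no probe set of their own and have no value here.

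The lines come from 3T3-L1, a mouse fibroblast line whose cells become fat-storing adipocytes when given a hormone cocktail. The 5 High lines were clones 3F4, 4D2, 4E3, 5C4 and 5D4 (High 1 to High 5), which have a high adipogenic potential by their label. The 5 Low lines were clones 1E7, 2D7, 2F1, 4D11 and 4H4 (Low 1 to Low 5), which have a low one. All 10 were untreated, proliferating cells in DMEM with serum, before confluence and before any cocktail, and each gave 1 array of total RNA. The labels name no low-oxygen treatment. Each clone is a single line, so a class is represented by 5 clones and a p-value measures the spread between clones and arrays together.

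In the presence of oxygen, the prolyl hydroxylases encoded by Egln1 and Egln3 mark the HIF alpha subunits (Hif1a, Epas1), and the VHL protein (Vhl) then directs them to degradation. Without oxygen the alpha subunits pair with ARNT and bind short motifs near genes of glucose uptake, glycolysis, lactate export, mitophagy and vessel growth. HIF1A is controlled chiefly as a protein, which an array does not see. Angptl4, whose secreted protein blocks lipoprotein lipase, is known as a target of both the PPAR receptors and HIF, and it differed between High and Low lines. The comparison therefore asks whether the hypoxia genes differed between the classes and whether Angptl4 moved with them from line to line.

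The values are log2 signals, 1 per array and probe set, and the signals of different probe sets were not set against each other as amounts of RNA. Array medians lay between 7.74 and 7.84. All 8 fibroblast markers measured, among them Pdgfra, Col1a1 and Vim, exceeded the array median on all 10 arrays. Of 5 adipocyte markers, Adipoq and Lep never exceeded an array's 25th percentile, whereas Plin1 lay above the median on all arrays. Of 9 markers of other cells, Ptprc and Adgre1 never exceeded the 25th percentile, whereas Cd68, Krt8 and Sox10 lay above the median on all arrays.

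No hypoxia or glycolysis gene passed the test between High and Low lines. By limma with Benjamini-Hochberg adjustment over 16339 genes, 0 of 28 were called, and their adjusted p ran from 0.526 to 0.957. The only gene called on the array was Angptl4, 0.00612% of those tested. At an unadjusted p under 0.05, 2 of the 28 stood apart (Tpi1 and Vhl, both with the higher signal in High lines), against 7.95% of all genes. In 0 of 28 did the 5 High and 5 Low lines separate without overlap, against 1.57% of all genes. The differences, High minus Low, were positive for 18 genes and negative for 10, with a median of 0.03, beside 0.02 and 58.0% positive over all tested genes. In the RNA of a whole culture, fewer cells that express a gene and less RNA per cell cannot be told apart. The differences ran from -0.35 for Adm to 0.39 for Bnip3 (0.19 with its other probe set), and single lines moved the largest of them. With 1 line left out at a time, the difference ran from 0.26 (without High 5) to 0.63 (without High 2) for Bnip3, and from -0.46 (without Low 4) to -0.20 (without Low 2) for Adm. It ran from 0.10 (without Low 4) to 0.34 (without Low 1) for Epas1, from 0.03 (without Low 4) to 0.37 (without High 2) for Pdk1, and from -0.34 (without Low 2) to -0.11 (without High 2) for Egln3. Another scaling of the arrays turned the sign of Arnt, Pgk1, Ldha, Pgam1, Ankrd37 or Car9, whose differences were all under 0.05 in size. Left out singly, Low 2 removed both genes at an unadjusted p under 0.05, Low 1 or Low 3 left 1, and without Low 4 there were 4. The share of all genes with a line left out is not given here.

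**Figure D1:**
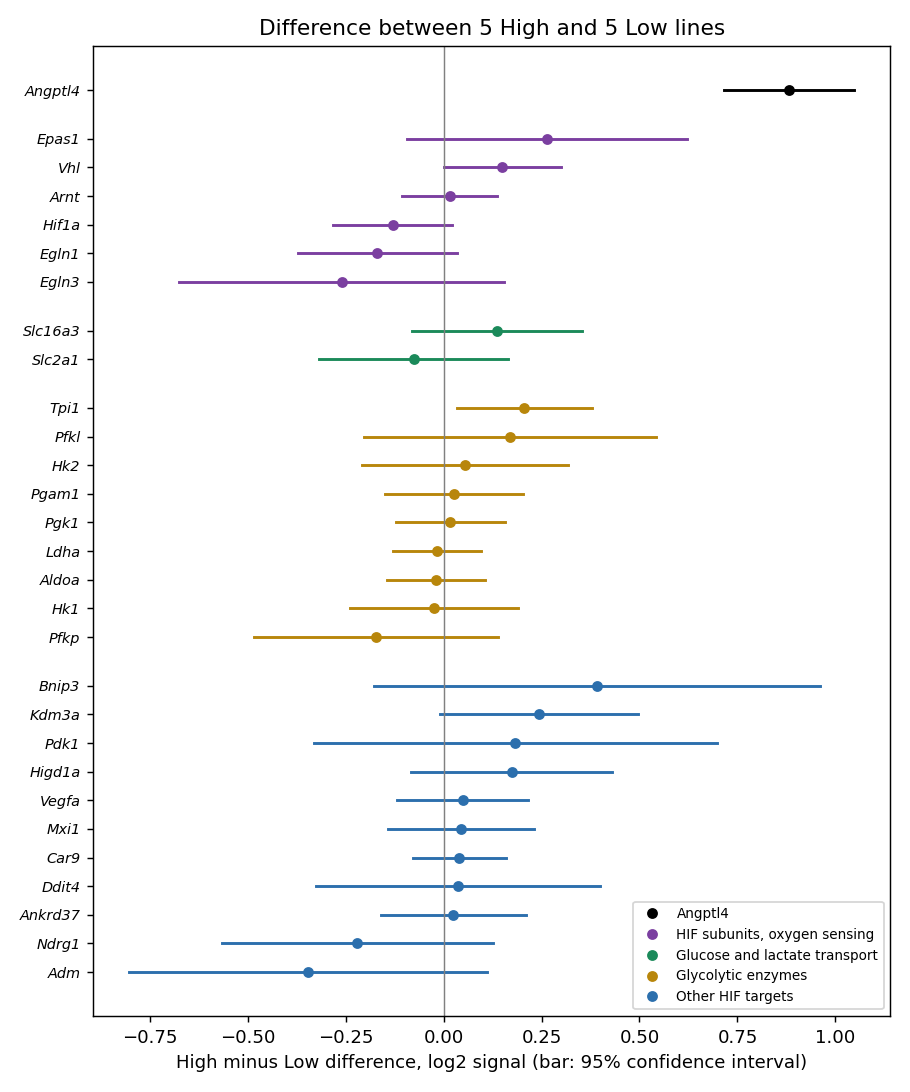
Difference in log2 signal between 5 High and 5 Low lines (High minus Low, horizontal axis) for Angptl4 and the 28 measured glycolysis and hypoxia genes, grouped by role. Points are limma estimates and bars 95% confidence intervals: the interval of Angptl4 runs from 0.72 to 1.05, and among the 28 genes only those of Tpi1 and Vhl do not include 0.

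Among the HIF subunits and oxygen sensors, 3 differences were positive and 3 negative, with a median of -0.06. The signal of Hif1a, the oxygen-regulated alpha subunit found in most cells, was 12.74, 12.43, 12.64, 12.56 and 12.65 in High lines, against 12.75, 12.84, 12.62, 12.75 and 12.71 in Low lines. High 2 was the lowest of the 10 lines, High 4 also lay below all Low lines, and the other 3 High lines lay within the Low range (12.62 to 12.84). The difference was -0.13 (95% confidence interval -0.28 to 0.02, adjusted p = 0.688, limma). Epas1, which encodes HIF-2 alpha, had means of 8.76 ± 0.17 in High lines and 8.50 ± 0.40 in Low lines (SD, n = 5 each), and its range over the 10 lines was 1.22, with Low 4 the lowest at 7.84. Arnt, the shared partner subunit, spanned only 0.15 over the 10 lines.

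Vhl, the substrate receptor of the ubiquitin ligase, had 10.46, 10.17, 10.32, 10.28 and 10.15 in High lines, against 10.10, 10.16, 10.10, 10.18 and 10.07 in Low lines. High 1, High 3 and High 4 lay above all Low lines, while High 2 and High 5 lay inside the Low range. Its difference of 0.15 had an adjusted p of 0.628. Egln1, the main HIF hydroxylase, had a difference of -0.17 (-0.37 to 0.03), with means of 11.15 ± 0.18 in High lines and 11.32 ± 0.12 in Low lines. Egln3, a hydroxylase that is itself induced by HIF, had 9.54, 8.77, 9.52, 9.68 and 9.38 in High lines, against 10.19, 9.31, 9.34, 9.73 and 9.61 in Low lines. High 2 was its lowest line and Low 1 its highest, a gap of 1.43 or 2.69-fold. The class difference was -0.26 (SE 0.19, -0.68 to 0.15).

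Neither transporter transcript passed the test. Slc2a1 encodes the glucose transporter GLUT1, and its signal was 12.98, 12.56, 12.82, 13.28 and 13.01 in High lines, against 13.14, 13.02, 13.01, 12.93 and 12.94 in Low lines. High lines included both the lowest and the highest of the 10, and the difference was -0.08 (-0.32 to 0.17). The lactate exporter gene Slc16a3 had a difference of 0.14 (-0.08 to 0.35), and its spread was also wider in High lines (SD 0.24) than in Low lines (SD 0.04), although that gap in spread was not tested.

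Of the 9 glycolytic enzymes measured, 5 had a positive and 4 a negative difference, and their median was 0.02. Tpi1, the triose phosphate isomerase gene, was the one enzyme at an unadjusted p under 0.05. It had 13.50, 13.45, 13.34, 13.18 and 13.46 in High lines, against 13.21, 13.03, 13.14, 13.18 and 13.33 in Low lines. High 1, High 2, High 3 and High 5 lay above all Low lines, and High 4 lay below 3 of them. The difference was 0.21 (0.03 to 0.38), or 1.15-fold, with an adjusted p of 0.526.

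The other enzymes had unadjusted p-values above 0.05. Ldha, which makes lactate, averaged 13.84 ± 0.05 in High lines and 13.86 ± 0.03 in Low lines, a difference of -0.02 (-0.13 to 0.10). Aldoa, the aldolase gene, had a difference of -0.02 (-0.14 to 0.11), and Pgk1, the phosphoglycerate kinase gene, one of 0.02 (-0.12 to 0.16). Their intervals are the narrowest of the enzymes, and signals near the top of an array's range can understate a change in the transcript. Pgam1, the phosphoglycerate mutase gene, had a difference of 0.03. The hexokinase genes, which start the route, had differences of -0.03 for Hk1 and 0.05 for Hk2. The phosphofructokinase genes pointed opposite ways, with 0.17 for Pfkl (-0.20 to 0.54) and -0.17 for Pfkp (-0.48 to 0.14).

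Among the 11 other HIF targets, 9 differences were positive and 2 negative, with a median of 0.04. Bnip3, a mitophagy receptor gene, had the largest of them, with 11.19, 9.75, 10.40, 10.94 and 11.22 in High lines, against 10.49, 10.79, 10.00, 10.11 and 10.15 in Low lines. High 1, High 4 and High 5 were the 3 highest of the 10 lines and High 2 was the lowest. The difference of 0.39 had a 95% confidence interval of -0.18 to 0.96 and an adjusted p of 0.763. With the other Bnip3 probe set, described below, the difference was 0.19, smaller than that of Kdm3a. Kdm3a, a histone demethylase gene, had a difference of 0.24 (-0.01 to 0.50), with means of 10.80 ± 0.21 in High lines and 10.55 ± 0.20 in Low lines and an adjusted p of 0.644. Pdk1, whose kinase keeps pyruvate out of the mitochondrion, had 0.18 (-0.33 to 0.70), and Higd1a, a mitochondrial protein gene, 0.17 (-0.08 to 0.43).

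The targets with negative differences were Adm and Ndrg1. Adm, which encodes the vasodilator peptide adrenomedullin, had 9.47, 9.93, 9.79, 9.63 and 9.26 in High lines, against 9.77, 10.55, 10.42, 9.50 and 9.56 in Low lines. Low 2 and Low 3 were its highest lines, and the other Low lines lay inside the High range. Its difference was -0.35 (-0.80 to 0.11, adjusted p = 0.727), and that of Ndrg1, a stress-induced gene, was -0.22 (-0.57 to 0.13). The differences of Vegfa, the vascular growth factor gene, of Ddit4, an inhibitor of mTORC1, of Mxi1, an antagonist of MYC, of Car9, a carbonic anhydrase gene, and of Ankrd37 lay between 0.02 and 0.05. Car9 lay at 6.84 ± 0.07 in High lines and 6.80 ± 0.03 in Low lines, below the array median on all arrays.

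A longer list of the pathway gave the same count of calls, with Angptl4, the only gene called on the array, kept out of it. Of 59 further genes of glycolysis and the hypoxia response, 55 were tested and 0 were called, with 30 positive and 25 negative differences and a median of 0.02. Their adjusted p ran from 0.515 to 0.984. At an unadjusted p under 0.05 stood 5 of the 55 (9.09%), near the 7.95% of all genes. They were Bhlhe40 (0.40), a HIF-induced transcriptional repressor gene, Egln2 (0.36), the remaining HIF prolyl hydroxylase gene, and Eno2 (0.44), an enolase gene, and with negative differences Tfrc (-0.43), the transferrin receptor gene, and Hmox1 (-0.25), the heme oxygenase gene. Egln2 had 10.80, 10.86, 10.17, 10.22 and 10.68 in High lines, against 10.10, 10.19, 10.08, 10.07 and 10.49 in Low lines, so that High 3 and High 4 lay inside the Low range.

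Several of the larger differences among the oxygen sensors belonged to genes on chromosomes whose other genes tended to differ in the same direction. The median difference was 0.06 over 827 tested genes of chromosome 6, -0.07 over 851 genes of chromosome 8 and -0.11 over 545 genes of chromosome 12. Hk2, Kdm3a, Tpi1 and Vhl lie on chromosome 6, Ankrd37 and Egln1 on chromosome 8, and Egln3 and Hif1a on chromosome 12. For each gene, the median deviation of its 50 nearest tested genes from their own means was subtracted in each line. Of these 8 differences, 7 then moved closer to 0, and their median size was 0.07 after subtraction, against 0.16 before it. On the other chromosomes 11 of 20 did so, with a median size of 0.09 after and 0.06 before. Over all tested genes 9058 of 16279 (55.6%) did so, with a median size of 0.07 after and before, and the 3 chromosomes were picked after their median differences were seen.

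After the subtraction the difference of Hif1a was 0.03, that of Egln1 -0.04, that of Vhl 0.05, that of Tpi1 0.10 and that of Egln3 -0.14, and 0 of the 28 genes remained at an unadjusted p under 0.05. Beside Tpi1, the nearest tested genes were Spsb2, with a difference of 0.13, and Usp5, with 0.22 (unadjusted p = 0.0375, limma). Beside Vhl they were Brk1 with 0.03 and Irak2 with 0.13.

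**Figure D2:**
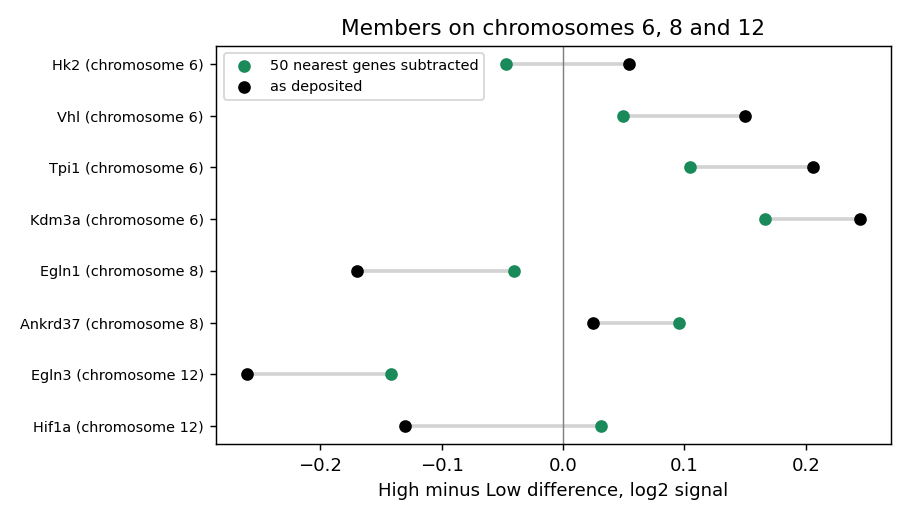
High minus Low difference in log2 signal (horizontal axis) of the 8 hypoxia and glycolysis genes on chromosomes 6, 8 and 12. Green points have the median deviation of the 50 nearest genes subtracted, and black points are as deposited. All but Ankrd37 lie closer to 0 after the subtraction, and Hif1a (0.03) and Hk2 (-0.05) lie on the other side of 0.

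For several genes single lines lay much further apart than the class means. Bnip3 spanned 1.47 over the 10 lines (2.76-fold), Egln3 1.43 (2.69-fold), Adm 1.30 (2.46-fold), Epas1 1.22 (2.34-fold) and Pdk1 1.22 (2.32-fold). The SD of Bnip3 within classes was 0.50, larger than that of 98.5% of tested genes, and those of Pdk1, Adm and Egln3 were larger than that of 98.0%, 97.3% and 96.3%. At the other end Ldha spanned 0.13, Arnt 0.15, Aldoa 0.17 and Car9 0.18, and the SD of Ldha within classes exceeded that of only 0.373% of tested genes.

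Bnip3, which was selected as the yardstick with earlier results of these data known, ordered the lines in a way that several other genes shared. Pdk1 had 9.52, 8.46, 9.25, 9.21 and 9.50 in High lines, against 9.26, 9.62, 8.77, 8.41 and 8.97 in Low lines. Pfkl had 11.20, 10.44, 10.44, 10.88 and 11.22 in High lines, against 10.95, 10.87, 10.40, 10.60 and 10.52 in Low lines. High 1 and High 5 were high and High 2 was low in Bnip3, Pdk1 and Pfkl, and in Low lines Low 1 and Low 2 lay above Low 3, Low 4 and Low 5 in all 3 genes. Ankrd37 had 8.17, 7.80, 7.91, 8.16 and 7.95 in High lines, against 8.04, 8.11, 7.97, 7.92 and 7.83 in Low lines, with the same order of Low 1 and Low 2 above the rest.

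**Figure D3:**
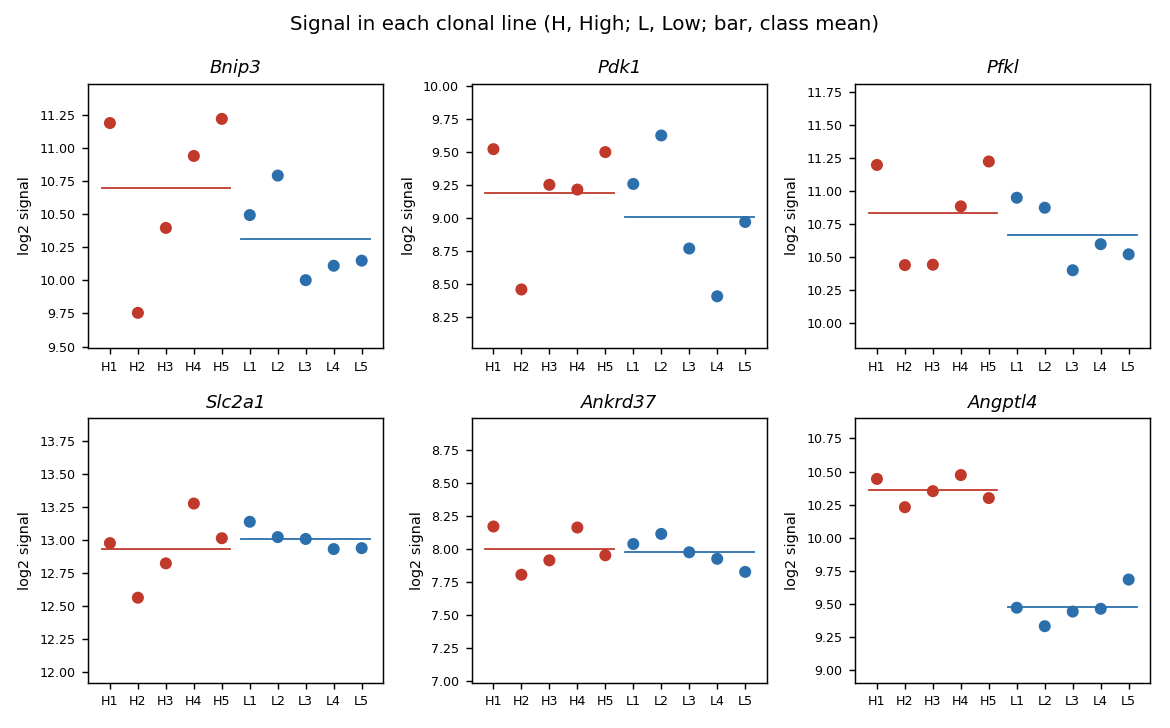
Log2 signal (vertical axes, each gene on its own range) of Bnip3, Pdk1, Pfkl, Slc2a1, Ankrd37 and Angptl4 in each clonal line, High 1 to High 5 in red and Low 1 to Low 5 in blue, with a bar at each class mean. High and Low lines overlap for the first 5 genes, with High 2 the lowest High line in each, whereas every High line lies above every Low line for Angptl4.

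The core letters of the HIF motif are ACGTG or GCGTG on either strand (CACGT and CACGC when read on the other strand). The promoters of these 5 genes, which carry them, are shown as examples. They are from RefSeq (GRCm38.p6), run 5′ to 3′ on the gene's strand from 250 bases before the start to 50 bases after it, and have every match in capitals. Bnip3 lies at chr7:138909457-138909756 (minus strand), Ankrd37 at chr8:45999801-46000100 (minus), Slc2a1 at chr4:119108495-119108794 (plus), Pfkl at chr10:78009758-78010057 (minus) and the first of 2 Pdk1 promoters listed at chr2:71872974-71873273 (plus).
Bnip3: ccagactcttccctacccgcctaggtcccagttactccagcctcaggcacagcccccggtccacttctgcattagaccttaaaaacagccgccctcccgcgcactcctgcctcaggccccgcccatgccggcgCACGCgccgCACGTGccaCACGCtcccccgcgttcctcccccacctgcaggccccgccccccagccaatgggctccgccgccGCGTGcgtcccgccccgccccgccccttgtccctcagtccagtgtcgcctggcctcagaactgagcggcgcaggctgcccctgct
Ankrd37: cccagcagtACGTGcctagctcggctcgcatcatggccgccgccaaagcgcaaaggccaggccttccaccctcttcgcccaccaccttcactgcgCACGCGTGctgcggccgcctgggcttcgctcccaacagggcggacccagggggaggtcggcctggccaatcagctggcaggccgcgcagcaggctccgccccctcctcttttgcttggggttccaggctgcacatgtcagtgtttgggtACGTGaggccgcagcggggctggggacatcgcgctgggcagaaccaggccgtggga
Slc2a1: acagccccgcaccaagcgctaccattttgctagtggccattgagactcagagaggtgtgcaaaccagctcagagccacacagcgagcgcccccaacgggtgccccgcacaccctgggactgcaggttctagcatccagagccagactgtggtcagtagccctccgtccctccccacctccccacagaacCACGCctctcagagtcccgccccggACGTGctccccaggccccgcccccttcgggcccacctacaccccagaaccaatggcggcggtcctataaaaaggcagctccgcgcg
Pdk1: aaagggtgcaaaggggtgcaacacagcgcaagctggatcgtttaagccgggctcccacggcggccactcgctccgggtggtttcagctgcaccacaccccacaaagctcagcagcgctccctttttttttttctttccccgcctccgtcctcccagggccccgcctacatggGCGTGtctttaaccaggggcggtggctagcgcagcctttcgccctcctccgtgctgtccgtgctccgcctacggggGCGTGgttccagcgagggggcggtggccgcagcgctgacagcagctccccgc
Pfkl: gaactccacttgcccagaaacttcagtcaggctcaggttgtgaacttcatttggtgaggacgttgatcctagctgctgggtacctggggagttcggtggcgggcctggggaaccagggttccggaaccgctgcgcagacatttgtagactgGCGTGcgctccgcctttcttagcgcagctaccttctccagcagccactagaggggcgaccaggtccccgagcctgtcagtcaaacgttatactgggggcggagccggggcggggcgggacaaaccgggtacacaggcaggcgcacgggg
Bnip3 has 5 matches between 117 and 35 bases before its start, and its CACGTG counts on both strands. Ankrd37 has 4, of which the CACGC and the GCGTG that begin 155 and 152 bases before the start overlap. Slc2a1 and Pdk1 have 2 each in the stretch shown, and Pfkl has 1, at 99 bases before the start.

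Such letters are common, so the matches describe the promoters and mark no binding site. The RefSeq table held 41 promoters of 29 of the 31 genes, and none of Epas1 and Ndrg1. ACGTG stood in 21 of the 41 (51.2%), against 19.6% of 32851 mouse promoters of the same 300 bases, and GCGTG in 21 (51.2%), against 32.4%. Either stood in 31 (75.6%), against 43.8%. Some promoters of the same gene overlap, as for Aldoa and Eno1, and hold the same match more than once in these counts. By gene, ACGTG stood in a promoter of 19 of the 29, GCGTG in 18 and either in 26, with no share by gene over all mouse genes. The promoters of the 29 genes were also richer in G and C, with a median of 63.3%, against 52.7% in all, and the part of that composition in the shares was not tested.

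When each gene was fitted on Bnip3's deviation from its class mean, with class in the model, 0 of 27 genes were called after adjustment over 16338 genes, as were 0% of all genes, although other settings called up to 8 genes, none of them among the 27. At an unadjusted p under 0.05, 8 of the 27 (29.6%) had a positive slope and 0 a negative one, against 5.28% of all genes with a positive slope. Over all 27, 20 slopes were positive and 7 negative, with a median of 0.10, beside 0.01 over all genes. The smallest p-values were those of Pfkl, with a slope of 0.58 log2 units per log2 unit of Bnip3 (95% confidence interval 0.37 to 0.80, adjusted p = 0.104), and of Pdk1, with 0.78 (0.46 to 1.10, adjusted p = 0.114). The slopes of Slc2a1, Ankrd37 and Hif1a were 0.30, 0.21 and 0.16, with adjusted p of 0.301, 0.377 and 0.439. Ddit4, Pfkp and Egln1 made up the 8, with slopes of 0.39, 0.32 and 0.20.

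The count of 8 rested on few lines. It was 3 of 27 (11.1%) without High 1, against 4.63% of all genes, and 2 (7.41%) without High 2, against 3.03%. Without Low 3 it was 5 (18.5%), against 4.87%. Without High 2 and High 5 together, the lines farthest from the middle in Bnip3, it was 3 (11.1%), against 2.94%. With another gene in Bnip3's place the count was 5 of 27 (18.5%) with Pdk1, against 6% of all genes. It was 5 (18.5%) with Ankrd37, against 6.6%, and 4 (14.8%) with Pgk1, against 3.48%. It was 2 (7.41%) with Ldha, against 2.13%, and 1 (3.70%) with Egln3, against 1.84%. With Ndrg1 it was 0 (0%), against 1.34%, and with Vegfa 0 (0%), against 1.7%. These counts were not tested against each other.

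Of the 55 further genes of the pathway, 6 (10.9%) had a positive slope on Bnip3 at an unadjusted p under 0.05 and 0 were called. Named after their values were seen, they were Ak4 (1.02), an adenylate kinase gene, Narf (0.92), P4ha2 (0.48) and P4ha1 (0.34), which encode collagen prolyl hydroxylase subunits, Insig2 (0.35), a sterol sensor gene, and Plod2 (0.30), a collagen lysyl hydroxylase gene. Ak4 had 9.91, 9.08, 9.61, 10.78 and 10.62 in High lines, against 10.53, 10.55, 9.36, 9.89 and 10.07 in Low lines. High 2 was its lowest line, as it was for Bnip3.

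Bnip3 was read from 2 probe sets, and the brighter one (10414269) was used. The IDs of these probe sets run along the genome, and none of the 30 annotated IDs nearest to it belongs to a gene of chromosome 7, where Bnip3 lies. The other one (10568785) has neighbours on chromosome 7, its within-class deviations had a correlation of 0.994 with those of the first over the 10 lines, its High minus Low difference was 0.19, and with it 7 of 27 genes had a positive slope at an unadjusted p under 0.05, against 5.17% of all genes. The probe sets used for Hk1, Higd1a and Pgam1 likewise lie away from the gene's own chromosome. Whether these 4 probe sets read the gene itself, a processed copy elsewhere or both was not tested, so their values carry that doubt. For Higd1a and Hk1 the other probe set correlated by only 0.43 and -0.23 within classes, and gave class differences of 0.03 and 0.03.

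As a description over 10 lines, the within-class correlation of a pair of these genes had a median of 0.17 over 378 pairs, and 22.0% of pairs exceeded 0.5, beside 0.02 and 15.8% over all pairs of tested genes. Among the 6 HIF subunits and sensors the median was 0.46 over 15 pairs, and among the 16 hypoxia targets 0.16 over 120 pairs. The pairs share arrays and scaling. Hif1a correlated with Bnip3 by 0.82 and with Pdk1 by 0.78, whereas Epas1 correlated with Hif1a by -0.42.

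Angptl4 separated the classes, and its order of lines within them was not that of Bnip3. Its signal was 10.44, 10.23, 10.35, 10.47 and 10.30 in High lines, against 9.47, 9.33, 9.44, 9.46 and 9.68 in Low lines, so that the classes did not overlap. High 2 was the lowest High line in both genes, whereas Low 2 was the highest Low line in Bnip3 and the lowest in Angptl4. High 1 and High 4 lay above the class mean in both genes and High 3 below it, while High 5 lay above it in Bnip3 alone. Low 3 and Low 4 lay below their class mean in both genes, while Low 1 and Low 5 lay on opposite sides of it. Within classes, the slope of Angptl4 on Bnip3, fitted in common to High and Low lines, was 0.04 (-0.16 to 0.23, unadjusted p = 0.694, limma). A slope for each class alone was not fitted, so a different course in the classes could be hidden in it. Between the classes, the mean centred level of the 16 hypoxia targets was 0.01 ± 0.13 in High lines and -0.01 ± 0.08 in Low lines (SD, n = 5 each), while Angptl4 differed by 0.88 (0.72 to 1.05, adjusted p = 0.00118).

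**Figure D4:**
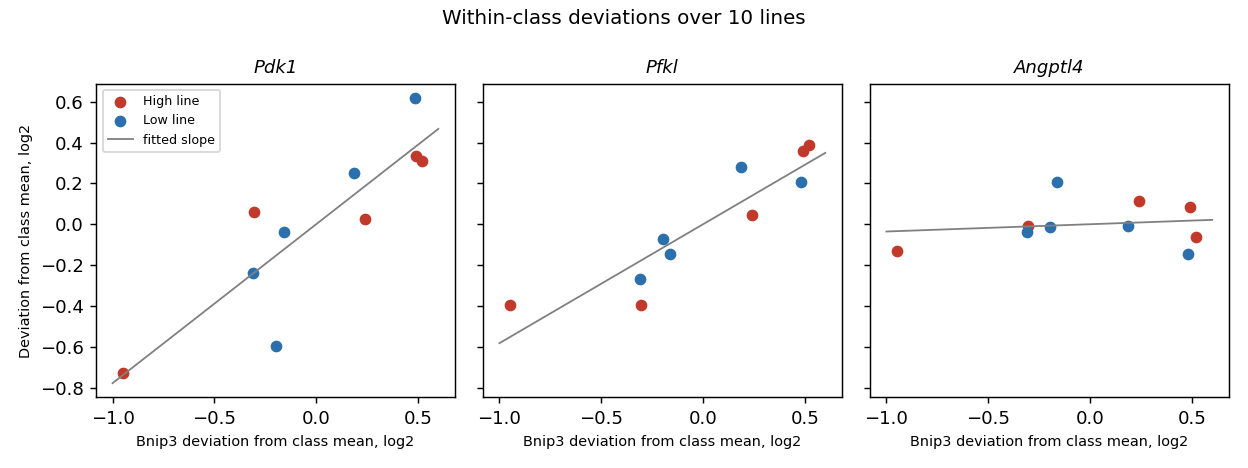
Deviation from the class mean in log2 signal of Pdk1, Pfkl and Angptl4 (vertical axis) against that of Bnip3 (horizontal axis) over 10 lines, High in red and Low in blue, with the slope fitted by limma as a line. The slopes are 0.78 for Pdk1, 0.58 for Pfkl and 0.04 for Angptl4, and High 2 is the point at the far left.

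With the mean of the hypoxia targets in the model, Angptl4's difference was 0.88 (SE 0.08, 0.70 to 1.05, adjusted p = 0.00343), and it remained the only gene called (0.00612%). With each of the 16 targets in turn as the covariate, the difference ran from 0.82 with Adm to 0.93 with Egln3, and all 16 fits called it, with a highest adjusted p of 0.0279 for Kdm3a. With Bnip3 as the covariate it was 0.87 (adjusted p = 0.00986). The mean of the targets differed by only 0.03 between the classes, so this covariate could shift Angptl4's difference only a little. The single targets differed by -0.35 (Adm) to 0.39 (Bnip3), and 0 of the 16 were called. Their shifts also depend on how Angptl4 varied with each target within classes, and for Bnip3 that slope was 0.04. These fits add little to the unadjusted one. When the leading digit of the clone name was added as a block, the difference at equal target level was 0.73 with an adjusted p of 0.717, and without the targets it was 0.72 with an adjusted p of 0.785. Only digit 4 holds lines of both classes, with Angptl4 at 10.23 and 10.35 in High 2 and High 3, against 9.46 and 9.68 in Low 4 and Low 5.

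Turned round, the hypoxia genes were fitted on Angptl4's deviation from its class mean. Of the 28 slopes, 22 were positive and 6 negative, with a median of 0.20. Among the 16 hypoxia targets 13 were positive and 3 negative. Over all genes 9408 were positive and 6930 negative, with a median of 0.07. The share of positive slopes was not tested. After adjustment 0 of 28 were called, as were 0% of all genes, and at an unadjusted p under 0.05 stood 1 of 28, against 2.12% of all genes. That gene was Adm, with a slope of -1.98 (-3.91 to -0.04), and the next was Egln3, with 1.63 (-0.20 to 3.46). The lines of a class differed little in Angptl4 (SD 0.12), so these intervals are wide: that of Bnip3's slope ran from -2.21 to 3.54. The count was 0 without High 1, High 2, High 3, Low 2 or Low 3, 2 without High 4, High 5 or Low 1, and 3 without Low 5. The share of all genes in these fits is not given here, so the counts cannot be read against it.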

How the data were processed

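Total RNA of 10 clonal lines was hybridised to whole-transcript arrays, 1 array a line. The deposited values are log2 intensities per probe set, made by the authors with RMA per the submitters' processing notes, which give no version. RMA draws arrays to a common distribution, so a shift shared by most genes would not show. RMA's settings were not given in the sources used here, nor was an array batch. Of 34760 probe sets, 22961 were annotated, 21640 with 1 symbol and 1321 with several, which stood for 19937 genes. The platform annotation named the genes, and RefSeq tables (GRCm38.p6) gave their order along chromosomes and their promoters.

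The brightest probe set of a gene was kept. A gene was tested when above the array's 25th percentile on at least 5 of 10 arrays (16339 genes, with 3598 set aside). High minus Low differences, slopes on Angptl4 or Bnip3 with class in the model, and the Angptl4 difference with the mean of 16 hypoxia targets as covariate were fitted with limma 3.58.1 (lmFit and eBayes, two-sided) in R 4.3.3 over all tested genes. Benjamini-Hochberg adjustment ran over all of them, with a threshold of 0.05. Promoters were searched and plots drawn with Python 3.11.15, pandas 2.3.3, numpy 2.4.6 and matplotlib 3.10.9. The fits were also run on simulated data in which genes varied independently and the planted class differences exceeded those of all 28 genes. That run does not show how often differences of the size given here would be found.

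All 31 genes were named, by role. Of 59 further pathway genes, those with the smallest unadjusted p between classes were named, up to 4 in each direction, and the 6 with a positive slope on Bnip3 were named after their values were seen. The nearest tested genes were named for Tpi1 and Vhl. The genes, lists and tests were chosen with earlier results of these data known. Alternatives covered the filter, the probe set, scaling between arrays, the variance model, array weights, the leading digit of the clone name, subtraction of the 50 nearest genes, other genes in place of Bnip3, and each line left out. Own-chromosome probe sets and the removal of the 2 farthest lines were added after the data were seen. The number of arrays limits the precision.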

Additional observations from a re-analysis of the deposited data

Results flagged for a closer look

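In 4 of the 58 sets of 5 lines examined (the 28 genes and Angptl4 in each class), 1 line lay far from the others of its class, by Dixon's criterion at 95%, where chance alone gives 2.9. Epas1 was at 9.06 in High 2, and between 8.66 and 8.73 in the other High lines. Hk2 was at 8.87 in High 5, and between 9.33 and 9.49 in the others. Pdk1 was at 8.46 in High 2, and between 9.21 and 9.52 in the others. Mxi1 was at 9.28 in High 5, and between 8.95 and 8.98 in the others.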

How the results depend on the processing

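Of the 28 genes, 0 were called in the class comparison or in either slope fit under every alternative run. Over all genes, the slope on Bnip3 had 8 calls with repeated quantile normalization, 2 with trend and robust eBayes, and 1 with centred arrays, with array weights, and without High 1, High 3 or Low 3. Over 586 values of the 28 class differences under 21 settings, 0 were called and 40 had the opposite sign. Depth does not apply to arrays, and signal over background was not given. With the clone name's leading digit as a block, Angptl4's difference lost its call (0.72, and 0.73 at equal target level), and the signs turned for Hk1 (0.23), Adm (0.33), Vegfa (-0.039), Pgk1 (-0.085), Pfkl (-0.12), Pgam1 (-0.027), Bnip3 (-0.054), Ankrd37 (-0.017), Ddit4 (-0.22), Slc16a3 (-0.064) and Mxi1 (-0.018). That block leaves 4 lines of digit 4 to compare the classes. Arrays centred on their medians gave Arnt -0.017, Pgk1 -0.015, Pgam1 -0.0051 and Ankrd37 -0.0069, and removal of the brightness trend gave Ankrd37 -0.020 and Car9 -0.013. Repeated quantile normalization gave Ldha 0.0037. Hk1 was 0.0022 with the mean of probe sets, 0.0072 with array weights and 0.030 with its own-chromosome probe set. With the 50 nearest genes subtracted, Hif1a was 0.031 and Hk2 -0.047. Class differences at an unadjusted p under 0.05 numbered 1 with centred arrays or with trend and robust eBayes, and 0 with the nearest genes subtracted. For slopes on Angptl4 the count was 0 with the stricter filter, repeated quantile normalization or the brightness trend removed, 3 with no class term and 5 without Low 5 and Low 2. For slopes on Bnip3 it was 3 without High 2 and High 5, and with other genes in its place 4 (Pgk1), 2 (Ldha), 5 (Pdk1), 0 (Ndrg1), 5 (Ankrd37), 1 (Egln3) and 0 (Vegfa). For the class differences and the slopes on Angptl4, the share of all genes at that threshold under these settings is not given. The causes of these changes were not tested.

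Leaving out 1 line at a time gave 0 calls among the 28 genes. At an unadjusted p under 0.05 it gave 0 to 4 class differences and 0 to 3 slopes on Angptl4, for which the share of all genes is not given. Positive slopes on Bnip3 at that threshold numbered 2 (7.41%) without High 2, against 3.03% of all genes, to 8 (29.6%) without Low 4, against 5.01%. Class differences ran from -0.0033 to 0.035 for Arnt, -0.16 to 0.015 for Slc2a1, -0.010 to 0.061 for Pgk1, -0.032 to 8.0e-05 for Ldha, -0.042 to 0.00025 for Aldoa, -0.080 to 0.038 for Hk1, -0.020 to 0.068 for Pgam1, -0.017 to 0.074 for Ankrd37, -0.10 to 0.12 for Ddit4 and -0.019 to 0.10 for Mxi1. No paired analysis was possible because the lines are separate clones and the labels pair no High line with a Low line.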
